A study of Mus musculus with 6 samples.

Results

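Complement genes were examined in cultured mouse dendritic cells treated or not with DB2313, which the study describes as an inhibitor of the transcription factor Spi1 (PU.1). The 9 genes were taken from the deposited table by name, out of 54532 genes: the C1q subunits C1qa, C1qb and C1qc, the components C3, Cfb and Cfp, and the receptors C3ar1, C5ar1 and C5ar2. There were 3 control libraries and 3 DB2313 libraries, both from dendritic cells kept in the same serum-containing medium. The labels gave no dose, duration, strain or age. The study gave a DB2313 dose for macrophages and a duration for its qPCR, without stating whether these applied to these libraries. They named dendritic cells, and the control count columns were named BMDC, the usual short form of bone marrow-derived dendritic cell. The methods of the study described peritoneal macrophages, and its qPCR of C1q with DB2313 used monocytes given GM-CSF. The study also presented an RNA-seq comparison of DB2313-treated macrophages with controls. It did not state whether these libraries are that comparison. The source of the cells is therefore uncertain. The count columns of the treated group were named after Spi1, not after the compound, and each direction given here rests on reading them as the DB2313 libraries. Nothing in the labels said whether the libraries came from separate cultures or animals, so the p-values measure the spread between these libraries only.

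Complement is a cascade of plasma proteins that tags particles for uptake and recruits leukocytes. C1q, built from A, B and C chains, starts the classical pathway by binding antibody or altered surfaces, and unlike most complement proteins it is made mainly by macrophages and dendritic cells. All pathways meet at C3. Factor B (Cfb) and properdin (Cfp) form and stabilise the convertase of the alternative pathway, and the fragments released from C3 and C5 act on the receptors C3ar1, C5ar1 and C5ar2 of myeloid cells.

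Total counts were between 16146743 and 19764677 per library. Replicates differed by more than counting noise, with a chi-square per degree of freedom of 5.01 to 5.54 between control pairs and 7.97 to 19.4 between DB2313 pairs, where replicates 1 and 3 were farthest apart. Of the 8 dendritic cell markers, 7 passed the filter on low counts, with Ccr7 at 1535 CPM (read counts scaled to library size with the TMM factors of edgeR) and H2-Ab1 at 1310 CPM in control, whereas Cd209a had at most 4 counts in any library. All 10 macrophage markers were also measured. Neutrophil markers summed to 4409 to 4959 CPM in control and 4470 to 5879 CPM with DB2313. T cell markers summed to 141 to 171 and 146 to 209 CPM, while those of fibroblasts, cells that make complement in many tissues, summed to at most 1.64 CPM, with Col3a1, Dcn and Lum at 0. In bulk RNA, fewer cells that express a gene and less of its RNA per cell cannot be told apart. The mRNA of Spi1 was at 366 ± 18.4 CPM in the control group and 329 ± 20.1 CPM in the treated group (SD, n = 3). Its log2 fold change was -0.15 (95% CI -0.306 to -0.002), and it was not called (edgeR adjusted p 0.206).

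Of the 9 complement genes, 4 fell with DB2313: all 3 C1q subunits and C3ar1. For comparison, 5.94% of the 14174 genes tested were called lower. None of the 9 was called higher by edgeR, DESeq2 or limma-voom, against 4.66% of all genes tested that edgeR called higher at an adjusted p under 0.05. At an unadjusted p under 0.05 in edgeR, 0 of the 9 were higher, and C5ar2 was lower (p 0.0301) beside the 4 that fell. The share of all genes at this unadjusted threshold is not given here. For 5 of the 9 genes (the 4 that fell and C5ar2) every treated library was lower than every control library, and for 0 of 9 every treated library was higher, against 14.5% and 12.9% of all genes tested. The median log2 fold change of the 9 genes was -0.35, and that of all genes tested was 8.2e-04. All 9 passed the filter on low counts. C1q was the subject of the study, so its direction here is not independent evidence. Of the 6 other members, 1 (C3ar1) was called lower. The members were chosen with earlier results of these data known, so these shares are not a test of the group.

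**Figure D1:**
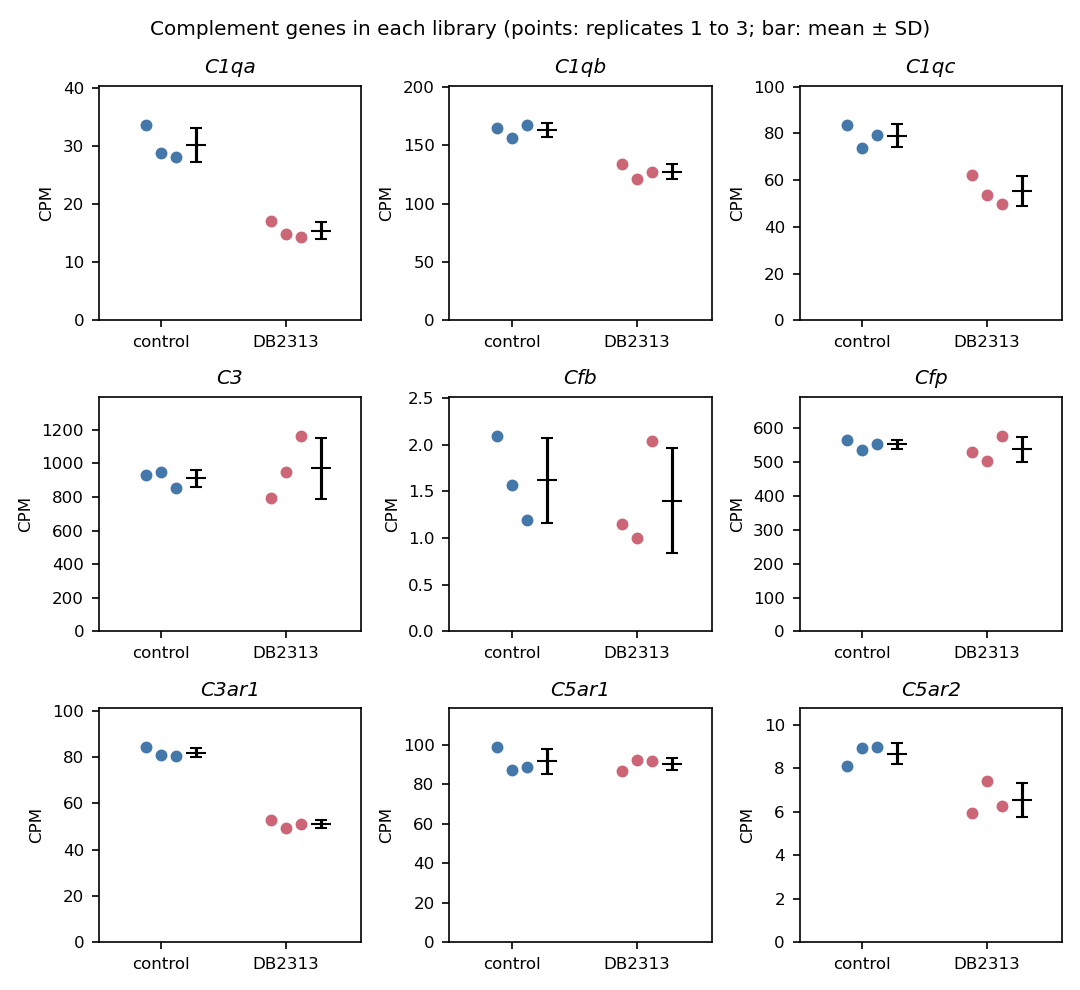
Level of each of the 9 genes in CPM (vertical axes, starting at 0) in the 3 control and 3 DB2313 libraries, with the mean ± SD beside the points. The groups are apart for C1qa, C1qb, C1qc, C3ar1 and C5ar2 and overlap for C3, Cfb, Cfp and C5ar1.

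The C1q genes lie side by side on the minus strand of chromosome 4 (GRCm38, 136880129 to 136898803), in the order C1qb, C1qc and C1qa, within 18675 bp. No other gene of the table overlapped them, and the transcripts of none shared a near-identical stretch (95% identity over 100 bp) with another gene. C1qa encodes the A chain. In replicate order, it had 547, 460 and 448 reads in control and 282, 295 and 239 with DB2313, or 33.6, 28.9 and 28.1 against 17.1, 14.8 and 14.4 CPM. The highest treated library was thus far under the lowest control library. The fitted level of C1qa fell by 48.9%, with a log2 fold change of -0.97 (95% CI -1.22 to -0.72) and an edgeR adjusted p of 7.8e-05. C1qc, for the C chain, was at 83.6, 73.9 and 79.5 CPM in control and 62.4, 53.8 and 49.8 CPM with DB2313. It fell by 30.0%, with a log2 fold change of -0.51 (95% CI -0.71 to -0.32) and an edgeR adjusted p of 0.00216. C1qb, for the B chain, was the most abundant, at 165, 156 and 167 CPM in control and 134, 122 and 127 CPM with DB2313. It fell by 21.7%, with a log2 fold change of -0.35 (95% CI -0.50 to -0.20) and an edgeR adjusted p of 0.00450. The call on C1qb was lost without DB2313 replicate 2 (-0.32, edgeR adjusted p 0.0568). Summed over the subunits, C1q RNA went from 272 ± 11.9 to 198 ± 12.9 CPM (SD, n = 3 each), a change of the mean of -27.1%.

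The estimated fall differed among the subunits, and they were therefore compared with each other within each library. The ratio of C1qa to C1qb reads within a library needs no scaling between libraries. It was 0.204, 0.185 and 0.168 in control and 0.128, 0.122 and 0.113 with DB2313, so the groups were apart, with a mean log2 difference of -0.62. That of C1qa to C1qc was 0.403, 0.390 and 0.354 against 0.275, 0.275 and 0.288 (mean log2 difference -0.45). The ratio of C1qc to C1qb was closer between the groups, at 0.506, 0.473 and 0.475 in control and 0.467, 0.443 and 0.391 with DB2313, and its log2 difference of -0.16 became -0.092 without DB2313 replicate 3. Each of these 3 ratios, and that of C5ar2 to C5ar1 below, had a p of 0.1 in an exact two-sided permutation test (0.1 after adjustment over the 4 ratios), which is the smallest that 3 against 3 libraries can give. Per kilobase of gene length, C1qb held 66.7% to 69.3% of the C1q signal in control and 71.6% to 74.7% with DB2313, and C1qa 12.2% to 14.2% and 8.81% to 9.60%. The share of C1qc was 18.3% to 19.0% and 16.5% to 18.8%, and overlapped.

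**Figure D2:**
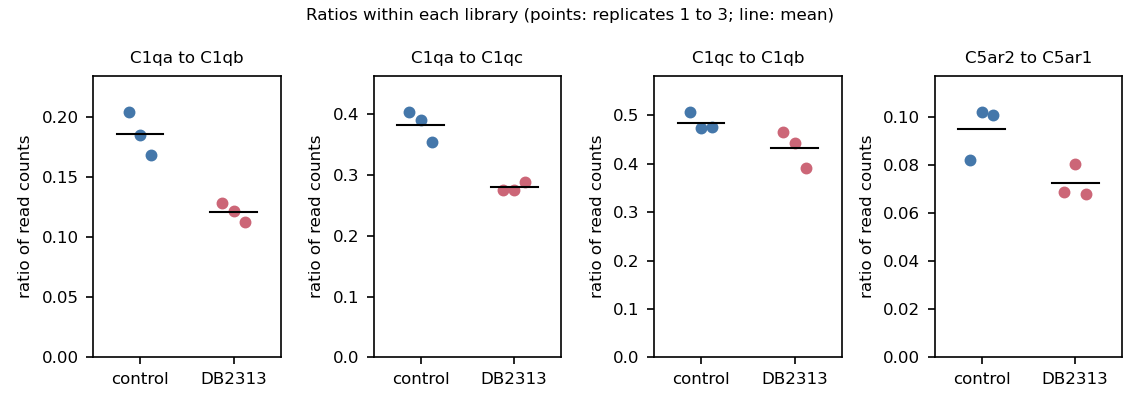
Ratio of read counts of the named genes within each library (vertical axes, starting at 0), with a line at the mean of each group. The C1qa to C1qb ratio is at least 0.168 in control and at most 0.128 with DB2313, and the groups are closest for C1qc to C1qb.

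The promoters of C1qb and C1qc are shown because Spi1, the reported target of DB2313, belongs to the ETS family, whose members bind around a GGAA core. The sequences are those of RefSeq (GRCm38.p6), from 250 bases before to 50 after its annotated start. This start can differ from the gene bounds used for the counts, and that of C1qc lies inside the counted gene, which extends to 136893065. Windows were given for 7 of the 9 genes (not for C1qa and Cfb). Capitals mark GGAA, or TTCC where the core is on the other strand. C3ar1, which also fell, and Cfp, which was not called, are set beside C1qb and C1qc. The windows lie on the minus strand at chr4:136886151-136886450 for C1qb, chr4:136892865-136893164 for C1qc, chr6:122856108-122856407 for C3ar1 and chrX:20931506-20931805 for Cfp.
C1qb: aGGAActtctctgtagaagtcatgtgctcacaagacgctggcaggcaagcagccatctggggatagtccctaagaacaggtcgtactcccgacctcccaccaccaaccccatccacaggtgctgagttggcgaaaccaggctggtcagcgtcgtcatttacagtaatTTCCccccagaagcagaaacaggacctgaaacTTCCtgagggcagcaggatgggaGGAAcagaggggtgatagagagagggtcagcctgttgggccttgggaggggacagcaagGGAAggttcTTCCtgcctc
C1qc: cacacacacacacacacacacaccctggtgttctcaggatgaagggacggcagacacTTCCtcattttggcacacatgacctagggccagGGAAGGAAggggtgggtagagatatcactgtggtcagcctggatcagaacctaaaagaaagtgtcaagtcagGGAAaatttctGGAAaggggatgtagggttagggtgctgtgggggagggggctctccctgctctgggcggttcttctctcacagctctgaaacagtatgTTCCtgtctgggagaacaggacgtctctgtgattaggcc
C3ar1: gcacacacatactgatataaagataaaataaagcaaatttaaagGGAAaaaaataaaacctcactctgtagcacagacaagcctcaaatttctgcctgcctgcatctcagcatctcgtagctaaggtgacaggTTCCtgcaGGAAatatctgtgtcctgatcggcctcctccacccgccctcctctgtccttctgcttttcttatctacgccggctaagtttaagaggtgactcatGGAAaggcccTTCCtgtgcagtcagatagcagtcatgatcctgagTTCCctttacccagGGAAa
Cfp: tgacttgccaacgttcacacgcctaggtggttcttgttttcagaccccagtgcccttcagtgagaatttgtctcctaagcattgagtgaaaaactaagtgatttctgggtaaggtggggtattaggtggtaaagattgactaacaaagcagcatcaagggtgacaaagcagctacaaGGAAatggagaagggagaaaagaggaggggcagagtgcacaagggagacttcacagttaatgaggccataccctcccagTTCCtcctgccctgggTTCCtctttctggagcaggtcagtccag

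The core was present 6 times in the windows of C1qb and C1qc, 7 times in that of C3ar1 and 3 times in that of Cfp. As it is only 4 letters long, it is found in 96.0% of the 32851 promoter windows of the reference, with a median of 3 matches, and 15.7% of windows held 6 or more. Of the other members that were not called, C5ar1 had 8, C5ar2 had 6 and 5 in its 2 windows, and C3 had 3. The longer letters GAGGAAGT, which include GAGGAA and GGAA, were found among the members only in the C1qc window, and in 3.20% of all windows. In C1qc they started 195 bases before the RefSeq start and read on the opposite strand. GAGGAA was found in the windows of C1qb, C1qc and Cfp and in 1 of the 2 windows of C5ar2, and in 28.3% of all windows. TGACTCA, the AP-1 site, was found in the window of C3ar1 (5.20% of all windows), and TTGCGCAA, a C/EBP palindrome, in none (0.183% of all windows). All were searched on both strands. These matches describe the letters and show no binding.

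No gene next to C1q was called. Within 100 kb, Epha8 had no counts, and Ephb2, a receptor kinase of neurons and epithelia, had at most 8 in any library. Zbtb40, a zinc finger gene, had 37.6, 41.3 and 39.5 CPM in control and 31.5, 36.3 and 36.4 CPM with DB2313, so its groups were apart, with a log2 fold change of -0.18 (95% CI -0.38 to 0.015) and an edgeR adjusted p of 0.254.

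Among the anaphylatoxin receptors, C3ar1 fell while C5ar1 was not called. C3ar1 (chromosome 6, 122847138 to 122856161, minus strand), the receptor for C3a, was at 84.2, 80.8 and 80.5 CPM in control and 52.7, 49.4 and 51.1 CPM with DB2313. The replicates of C3ar1 lay close together in both groups. It fell by 37.6%, with a log2 fold change of -0.68 (95% CI -0.84 to -0.52) and an edgeR adjusted p of 4.7e-05, and stayed between -0.70 and -0.66 in all 16 alternatives. C5ar1 (chromosome 7, 16246743 to 16259540, minus strand), the signalling receptor for C5a, was at 98.9, 87.4 and 88.9 CPM in control and 86.8, 92.3 and 91.9 CPM with DB2313. The groups overlapped, and its log2 fold change was -0.023 (95% CI -0.19 to 0.14, edgeR adjusted p 0.902). The difference between C3ar1 and C5ar1 was not tested. C5ar2 (16234585 to 16244154), the second C5a receptor, lies beside C5ar1 on the same strand. It was at 8.12, 8.91 and 8.97 CPM in control and 5.95, 7.42 and 6.25 CPM with DB2313, on 98 to 148 reads per library. All treated libraries were lower, yet its log2 fold change of -0.40 (95% CI -0.76 to -0.044) had an edgeR adjusted p of 0.157. The ratio of C5ar2 to C5ar1 reads was 0.0820, 0.102 and 0.101 in control and 0.0686, 0.0804 and 0.0680 with DB2313. Transcripts of C5ar2 share near-identical stretches of up to 168 bp with 90 other genes, so part of its reads may be uncertain.

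**Figure D3:**
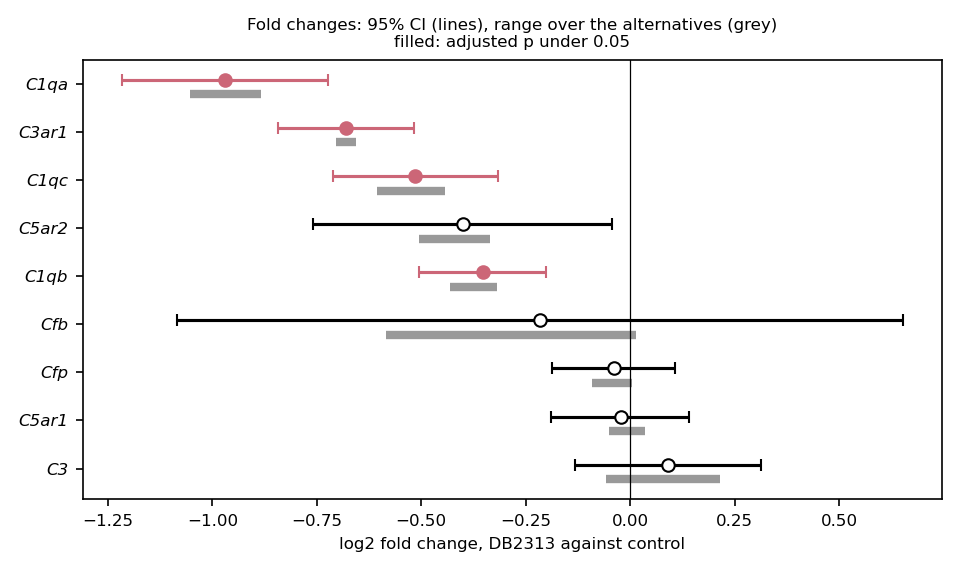
Log2 fold change of each gene, DB2313 against control (horizontal axis), with its 95% confidence interval; filled points have an adjusted p under 0.05 and grey bars span the 16 alternative analyses. C1qa, C3ar1, C1qc and C1qb are filled and lie left of 0, and the grey bars of C3, Cfb, Cfp and C5ar1 reach both sides of 0.

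The alternative pathway components were not called. Cfp (chromosome X, 20925454 to 20931555, minus strand), properdin, was at 566, 537 and 554 CPM in control and 531, 505 and 577 CPM with DB2313. Its log2 fold change was -0.039 (95% CI -0.19 to 0.11, edgeR adjusted p 0.795), and its sign turned without DB2313 replicate 2. C3 (chromosome 17, 57203970 to 57228136, minus strand), the central component, was at 929, 951 and 850.0 CPM in control. With DB2313 it was at 796 CPM in replicate 1, 949.5 in replicate 2 and 1162 in replicate 3, so the treated libraries reached both below and above the control range. Its log2 fold change was 0.091 (95% CI -0.13 to 0.31, edgeR adjusted p 0.669), 0.21 without DB2313 replicate 1 and -0.059 without DB2313 replicate 3. Cfb (chromosome 17, 34856374 to 34862518, minus strand), factor B, had 34, 25 and 19 reads in control and 19, 20 and 34 with DB2313. The groups overlapped, with a log2 fold change of -0.22 (95% CI -1.08 to 0.65) and an edgeR adjusted p of 0.809. Cfb overlaps Gm20547 on the same strand, a gene with 0 counts in all libraries whose transcripts share up to 2248 bp with it, and how reads that match both genes were counted is not given in the sources used here.

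Compared per kilobase of gene length, Cfp was the highest of the 9 genes in control, at 318 ± 8.32 CPM per kilobase, followed by C3 at 177 ± 10.3 and C1qb at 149.7 ± 5.37 (SD, n = 3). C1qc (40.9 ± 2.51) and C5ar1 (35.7 ± 2.43) came next and overlapped. C1qa (29.0 ± 2.88), C3ar1 (19.0 ± 0.484), C5ar2 (2.43 ± 0.134) and Cfb (0.572 ± 0.160) followed without overlap between neighbours. With DB2313 the order was the same except that C5ar1, at 35.1 ± 1.19, stood above C1qc, at 28.7 ± 3.32, and there no neighbours overlapped.

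A wider list of 57 complement genes, which includes the 9, was read from the same fit. Of these, 31 passed the filter on low counts, 6 had no count in any library and 20 were too low to test. Among the 31, 2 were called higher and 6 lower, and the median log2 fold change was -0.023. In the 22 that are not among the 9, the counts were 2 higher and 2 lower and the median was 0.19. Over all 14174 genes tested, 4.66% were called higher and 5.94% lower. Of the classical pathway, 8 of 10 genes were tested, and those called were the 3 C1q subunits, all lower. The proteases that pair with C1q were not called: C1ra had 18.0 ± 2.41 CPM in control and 15.7 ± 0.536 CPM with DB2313 (log2 fold change -0.20 ± 0.12, SE, edgeR adjusted p 0.388), and C1s1 had 1.91 ± 0.760 and 3.34 ± 1.47 CPM (adjusted p 0.222). Both are uncertain, since C1ra shares 2432 bp with C1rb and C1s1 shares 2644 bp with C1s2. C4b, the component cleaved by C1s, had 11 or 12 reads in control and 17, 44 and 32 with DB2313 (log2 fold change 1.28 ± 0.43, SE, edgeR adjusted p 0.0715). It shares 5378 bp with C4a (log2 fold change 0.58 ± 0.37, edgeR adjusted p 0.391), so reads of this pair are uncertain. Leaving out DB2313 replicate 1 raised the number called higher in the wider list to 6, with C4b, C1s1, Cd93 and Lrp1 added.

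Of 9 lectin pathway genes, only Fcnb, a ficolin of myeloid cells that binds sugars and starts the lectin pathway, passed the filter. Fcnb rose by 0.51 ± 0.12 on the log2 scale (SE), from 14.7 ± 0.689 to 20.9 ± 1.70 CPM, at an edgeR adjusted p of 0.0102 (0.0524 without control replicate 1). Of 7 terminal pathway genes only C8g was tested, and it was not called. None of the 7 tested regulators was called by edgeR. The lowest adjusted p among them was 0.168, for Susd4, whose groups overlapped (1.62 ± 0.497 and 2.81 ± 0.756 CPM). Cr1l, which protects mouse cells from their own C3 convertase, was the most abundant regulator in CPM, at 69.0 ± 5.44 and 60.9 ± 5.85 (log2 fold change -0.18 ± 0.09, SE, edgeR adjusted p 0.257). Serping1, the C1 inhibitor, and Cfd, factor D, were listed at 0 in all libraries.

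The subunits of the receptors for bound C3 fragments were read next. Itgax, the alpha chain of complement receptor 4 and a dendritic cell marker, was at 176, 173 and 168 CPM in control and 109, 108 and 130.0 CPM with DB2313. It fell by 0.58 ± 0.08 on the log2 scale (SE), with an edgeR adjusted p of 3.2e-04, in all 16 alternatives. Itgam, the alpha chain of complement receptor 3, went from 272 ± 23.8 to 229 ± 3.45 CPM and was called lower (-0.25 ± 0.07, SE, edgeR adjusted p 0.0441) and in 10 of 16 alternatives. The call on Itgam was lost with library totals, with the replicate block, and without control replicate 1, control replicate 3 or DB2313 replicate 2 (highest adjusted p 0.228). Itgam overlaps Gm49368 on the same strand, and their transcripts share up to 3454 bp, so part of its reads may be uncertain. Their shared beta chain Itgb2 was not called (-0.087 ± 0.08, edgeR adjusted p 0.583). Of 5 genes for proteins reported to bind C1q, 1 was called, Lair1, an inhibitory collagen receptor. Lair1 rose by 0.35 ± 0.08 on the log2 scale (SE), from 51.0 ± 1.03 to 65.0 ± 3.36 CPM, at an edgeR adjusted p of 0.0102 (0.0576 without control replicate 3). Calr, calreticulin, was at 791, 808 and 838 CPM in control and 944, 903 and 878 CPM with DB2313, so its groups were apart, but it was called only without DB2313 replicate 3 among the 16 alternatives (edgeR adjusted p 0.136, and 0.0362 there). Lrp1, an endocytic receptor, overlapped between the groups (edgeR adjusted p 0.423) and was called in 4 of 16 alternatives, with no filter, with the gene length offset with or without the replicate block, and without DB2313 replicate 1. C1qbp was at 72.6 ± 6.18 and 75.8 ± 5.86 CPM (edgeR adjusted p 0.739). Transcripts of C1qbp, Cd93, Itgb2 and Lair1 share near-identical stretches of up to 147, 151, 228 and 304 bp with other genes. Part of their reads may be uncertain too.

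**Figure D4:**
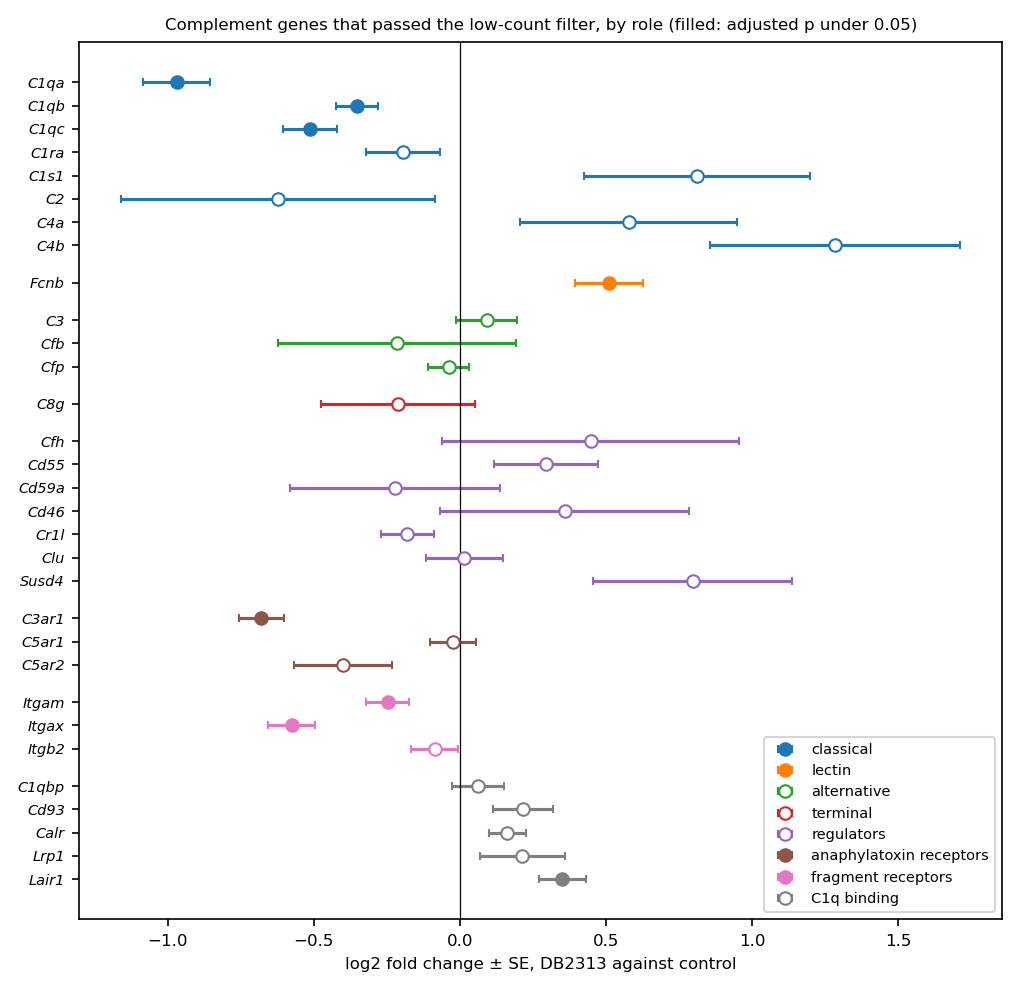
Log2 fold change ± SE, DB2313 against control (horizontal axis), of the 31 complement genes that passed the filter on low counts, coloured by role; filled points have an adjusted p under 0.05. The 6 filled points left of 0 are C1qa, C1qb, C1qc, C3ar1, Itgam and Itgax, and the 2 to the right are Fcnb and Lair1.

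C1q is made by macrophages, and macrophage markers moved in both directions beside it. Of the 10 markers, 4 were called lower and 3 higher, against 5.94% and 4.66% of all genes tested. Among those lower, Mrc1, the mannose receptor, fell from 130.0 to 79.4 CPM (log2 fold change -0.71, edgeR adjusted p 0.00325), Apoe from 228 to 157 CPM (-0.54, adjusted p 1.7e-04) and Csf1r from 689 to 562 CPM (-0.29, adjusted p 0.0324). Ms4a7 rose from 7.33 to 20.4 CPM (1.48, edgeR adjusted p 2.8e-05), Trem2 from 111 to 151 CPM (0.44, adjusted p 0.00131) and Fcgr1 from 48.3 to 58.0 CPM (0.26, adjusted p 0.0477). Adgre1, Cd68 and Mertk were not called. The summed macrophage markers were 1683 to 1799 CPM in control and 1396 to 1664 CPM with DB2313, and the summed dendritic cell markers were 3429 to 3535 and 2988 to 3291 CPM. Of 9 neutrophil markers, 2 (Ly6g and Elane) were called higher and 0 lower. Among the others, Camp (-0.29) and Ngp (-0.013) had log2 fold changes below 0. The rest were above 0, such as Mpo at 0.30 (edgeR adjusted p 0.0501), and the median of the list was 0.16. Of 7 mast cell and basophil markers, 2 (Fcer1a and Hdc) were called higher and 0 lower. Only Ms4a2 was below 0 (-0.17), and the median of the list was 0.099. These markers summed to 1311 to 1385 CPM in control and 1318 to 1583.5 CPM with DB2313. The part of these cells in the fall of C1q and C3ar1 was not tested.

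Genes with a pattern like that of C1qa were sought by the root mean square difference of log2 CPM, each gene centred on its mean over the 6 libraries, among 9721 genes with a mean log2 CPM of at least 3. The 5 closest were Tsku, S1pr3, Atp6v0d2, Ralgds and Klrk1, at 0.088 to 0.093. S1pr3, a sphingosine-1-phosphate receptor, went from 14.3 ± 1.63 to 7.31 ± 0.815 CPM, and Atp6v0d2, a subunit of the lysosomal proton pump, from 64.0 ± 7.56 to 29.4 ± 3.03 CPM (SD, n = 3 each). C3ar1 stood at rank 39 (0.165), ahead of C1qc at rank 108 (0.231) and C1qb at rank 421 (0.320). Cfp, C5ar1 and C3 were at ranks 3630, 3860 and 7580. The difference is not scaled to the size of a gene's change, so the order of these members repeats that of their log2 fold changes. It is not separate evidence. This likeness describes these libraries and has no test.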

How the data were processed

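RNA-seq libraries of 3 control and 3 DB2313-treated dendritic cell samples were compared. One table deposited by the authors holds unnormalized read counts for each gene, with gene length in base pairs. The labels' processing notes name CASAVA 1.8, HISAT2 2.0.5 and featureCounts 1.5.0-p3, whereas the methods of the study name LifeScope. The build and strandedness are not given in the sources used here. Of 54409 gene identifiers shared with GENCODE M21 (GRCm38), 98.33% had the same start and end, as had all 9 members.

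Counts were fitted over all genes with the quasi-likelihood test of edgeR 4.0.16 (R 4.3.3), with TMM scaling, filterByExpr and Benjamini-Hochberg adjustment over 14174 genes. A gene was called at an adjusted p under 0.05, and SE and 95% intervals were derived from the F statistic. All CPM are TMM-scaled. The script was tested on simulated data. DESeq2 1.42.0, limma-voom (limma 3.58.1), other scalings and filters, a gene length offset, a replicate block and the omission of each library were alternatives.

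All members, the called genes of the complement list, marker genes, neighbours within 100 kb and the 5 genes most like C1qa were named by rule, as were list genes needed to describe a role. Members and lists were chosen with earlier results of these data known. The values of 1 macrophage marker are not reported here. The labels gave no batch. Intervals on low counts cover counting error and spread between libraries only.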

Additional observations from a re-analysis of the deposited data

How the results depend on the processing

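C1qa, C1qc and C3ar1 kept their direction and an adjusted p under 0.05 in all 16 alternatives, with log2 fold changes of -1.05 to -0.88, -0.61 to -0.44 and -0.70 to -0.66. C1qb did so in 15 of 16. With single libraries omitted, C1qb ranged from -0.39 to -0.32, the latter without DB2313 replicate 2 with an edgeR adjusted p of 0.0568. C5ar2 stayed between -0.50 and -0.34 and was never called (lowest adjusted p 0.135). The members near 0 changed sign: C3 ranged from -0.059 (DB2313 replicate 3 omitted) to 0.21 (DB2313 replicate 1 omitted), Cfb from -0.58 (DB2313 replicate 3) to 0.013 (control replicate 1), Cfp from -0.092 (DB2313 replicate 3) to 0.0054 (DB2313 replicate 2), and C5ar1 from -0.051 (control replicate 2) to 0.035 (control replicate 1), with 0.0061 when DB2313 replicate 1 was omitted and 2.1e-04 with library totals. None of these 4 was called in any alternative, and the cause was not tested. Of the wider complement list, 1 to 6 genes were called higher with single libraries omitted (6 for DB2313 replicate 1) and 4 to 6 lower.

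The replicate numbers of the labels gave no pairing: deviations from group means correlated across same-numbered libraries at 0.0035, -0.024 and -0.12. With the replicate block, no call on a member changed (C1qb -0.35, adjusted p 0.0158), and 2 genes of the wider list were higher and 5 lower, Itgam being lost. The block left the ratios as they were, with an exact p of 0.25, the smallest that 3 pairs allow. Cfb had 19 to 34 reads per library, and how far depth or the spread between libraries widened its interval was not tested.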
